A study of Caenorhabditis elegans with 27 samples.

Results

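Transcript levels of 9 protein-coding genes of Caenorhabditis elegans were followed across strains in which topoisomerase I, topoisomerase II or a condensin subunit can be degraded with auxin. The genes are R09E10.13, F26A3.4, F54A3.2, phkg-1 (sequence name Y50D7A.3), Y48E1B.3, Y64G10A.7, Y43F8B.2, F33D4.6 and Y60A3A.19. They are 9 of the 20390 genes listed for each library, and all 9 were among the 14271 genes that passed the filter on low values. They were chosen from these data for a large decrease in strain AM05 with auxin, or for a level in AM05 below CA1200 after 120 min. Their AM05 values and their distance from CA1200 at 120 min are therefore given as a description without a test. The choice set no numerical limit, so no genes lie just inside or just outside one.

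Whole worms were sequenced as poly(A) RNA. AM05 carries top-1::degron::GFP, SS01A carries top-2::degron::GFP, and AM01 carries dpy-27::degron::GFP, while for CA1200 the labels list no tagged gene. AM05, SS01A and CA1200 worms were taken with no auxin (0 min) and at 30, 60 and 120 min on 1 mM indole-3-acetic acid, and AM01 worms at 0 and 120 min only. The 14 groups had 2 libraries each, except CA1200 at 60 min with 1, which makes 27 libraries. The worms were synchronized L2/L3 larvae grown for 24 hours at 22°C after hatching without food, except that the second AM01 library at each time, called replicate 2 here, came from mixed stage larvae. The labels give no promoter or tissue for the F-box protein and do not say whether a library pools separate cultures.

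The auxin-inducible degron uses the plant F-box protein TIR1, which in the presence of auxin hands a tagged protein to the proteasome. It acts on protein, so the transcript level of a tagged gene is no check of its loss. Topoisomerase I cuts and reseals 1 strand of DNA and so releases the supercoils that a transcribing RNA polymerase builds up ahead of and behind itself. Topoisomerase II passes a duplex through a double-strand break. DPY-27 belongs to condensin DC, the complex that lowers X-linked transcription in hermaphrodites. Among the 9 genes only phkg-1 has a gene name in the annotation. It encodes the catalytic gamma subunit of phosphorylase kinase, which activates glycogen phosphorylase and so the release of glucose from glycogen. The other 8 genes have sequence names only, and no function is given to them here.

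Between 6.05 and 22.6 M fragments were estimated to lie behind each library. Replicate 1 of SS01A (4 libraries) and of AM01 (2 libraries) stood apart from the other 21. Their depth reached at most 9.9 M, where the others began at 12.3 M, and their median gene had 5.11 to 6.84 TPM, where the others had 1.27 to 2.54. The share of TPM held by genes of ribosomal proteins was 17.3% to 26% against 32.3% to 39.5%. Markers of muscle, intestine, neurons and hypodermis were present in every library. Summed adult yolk transcripts reached at most 0.747, sperm transcripts 0.354 and the adult collagen col-19 1.46 scaled TPM, so markers of adults were near 0. Levels below are TPM scaled between libraries by median ratios, called scaled TPM. In whole worms, fewer cells that express a gene and less transcript per cell cannot be told apart.

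In genomic span, start to stop in the deposited files, the 9 genes ran over a wide range and none lay on the X chromosome. 5 of the 9 were among the longest 10% of tested genes, those of at least 7743 bp. Y64G10A.7 was the longest, at 27606 bp on chromosome IV (14291943 to 14319548), and its span exceeded that of 99.6% of tested genes. Y48E1B.3 spanned 20752 bp on chromosome II (13547178 to 13567929) and Y43F8B.2 spanned 13187 bp on chromosome V (19519894 to 19533080). F54A3.2 spanned 10720 bp on chromosome II (2243655 to 2254374) and phkg-1 spanned 9863 bp on chromosome III (254533 to 264395). These are long genes for a compact genome, and most of their length is intron.

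The remaining 4 genes were short to middling. F33D4.6 spanned 3847 bp on chromosome IV (7714152 to 7717998) and Y60A3A.19 spanned 3443 bp on chromosome V (19916523 to 19919965). F26A3.4 spanned 1388 bp on chromosome I (7656902 to 7658289). R09E10.13 was the shortest, with 432 bp on chromosome IV (10294814 to 10295245), shorter than all but 2.59% of tested genes.

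The reference annotation, WBcel235, shows what lies inside these spans. Its longest transcript of Y64G10A.7 had 23 exons, its exons covered 5337 bp in all, and its longest intron was 4769 bp. Y43F8B.2 was built otherwise, with 7 exons, 1125 bp of exon and a single intron of 9619 bp that makes up most of the gene. R09E10.13 had 2 exons around an intron of 51 bp. The build behind the deposited coordinates was not given in the sources used here; only 1.42% of matched genes began at the same base in the reference, so positions are those of the files.

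Over all tested genes, the 120 min change in AM05 moved with span. The longest 10% of genes had a median log2 change of -0.41 and the shortest 10% one of 0.22, against -0.04 and -0.03 in CA1200. Among the longest 10%, limma called 6.59% lower in AM05 at an adjusted p under 0.05, and among the shortest 0.14%. That longest class holds 5 of the genes described here, which were chosen for their decrease.

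**Figure D1:**
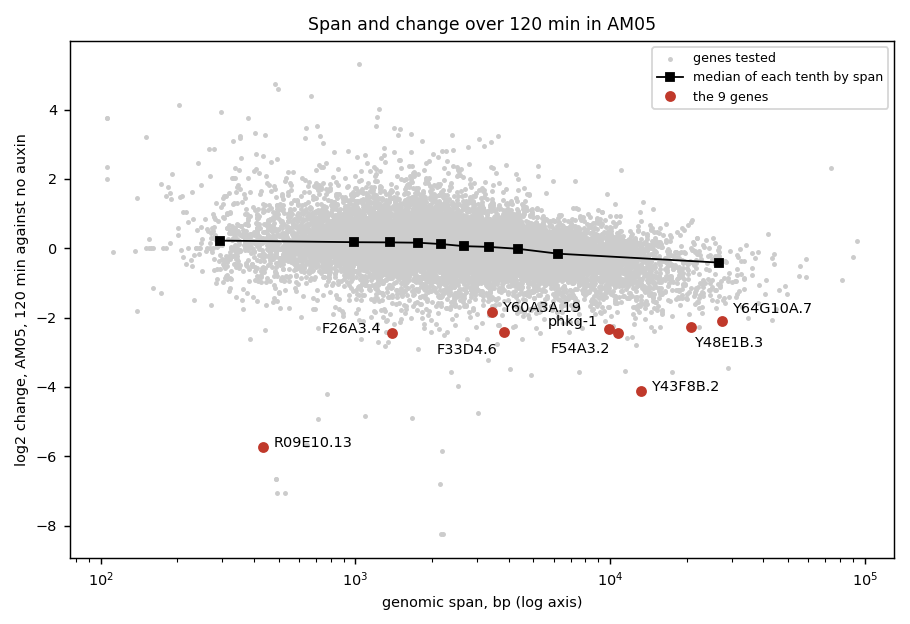
Log2 change in AM05 after 120 min of auxin against no auxin (vertical axis) by genomic span in bp (horizontal log axis) for all tested genes in grey and the 9 genes in red; black squares are the median change in each of 10 equal classes of genes by span, drawn at the geometric midpoint of its limits. The median is -0.41 in the class of longest genes, and the 9 genes lie between -1.83 and -5.73 at both short and long spans.

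The 9 genes followed more than one course in AM05, and they are described below in groups made after their values were seen. phkg-1, Y48E1B.3, Y64G10A.7 and Y60A3A.19 were lower at each later time in AM05, and in CA1200 kept most of their level. R09E10.13, F26A3.4, Y43F8B.2 and, in part, F54A3.2 were far lower after 120 min of auxin in CA1200 as well. F33D4.6 differed so widely between replicates that it stands by itself. No test was made on these groups. Where libraries of AM05 and CA1200 are said to overlap or not, each group has at most 2 libraries. How many of all tested genes part in this way was not counted, so it is a description only.

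The phosphorylase kinase gene phkg-1 stood in the AM05 libraries at 25.4 and 26.6 scaled TPM before auxin, at 15.3 and 13.4 by 30 min, at 6.87 and 7.73 by 60 min and at 3.01 and 6.12 by 120 min. The CA1200 libraries had 25.9 and 28.7 before auxin, 18.6 and 17.6 at 30 min, 17.5 in the only library at 60 min, and 18.6 and 19.5 at 120 min. Both strains were lower at 30 min, and from then on AM05 was lower at each time while CA1200 stayed level. The AM05 and CA1200 libraries did not overlap at 30, 60 or 120 min. After 120 min the mean was 4.57 ± 2.2 scaled TPM in AM05 and 19 ± 0.637 in CA1200 (SD, n = 2 each), so AM05 stood at 24% of CA1200. The log2 change over 120 min, taken on log2(scaled TPM + 1) as everywhere below, was -2.34 ± 0.29 (SE) in AM05 and -0.50 ± 0.29 in CA1200.

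Y48E1B.3 in AM05 stood at 19.2 and 18.4 scaled TPM at 0 min, 9.93 and 10.3 at 30 min, 6.14 and 4.58 at 60 min, and 3.07 and 3.12 at 120 min. At the same times CA1200 had 19 and 21.8, 17.3 and 18.9, 15.7, and 16.7 and 19.1. The AM05 replicates lay close together throughout, and from 30 min on they lay below all CA1200 libraries. After 120 min, 16% and 16.9% of the no-auxin level was left in AM05, against 87.8% and 88% in CA1200. The gene ddl-2 lies on the same strand and overlaps Y48E1B.3 by 382 bp, so reads in the shared stretch could belong to either.

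Y64G10A.7, the longest of the genes, had 12.7 and 11.6 scaled TPM in AM05 at 0 min, 6.43 and 6.54 at 30 min, 3.64 and 4.22 at 60 min, and 2.21 and 1.96 at 120 min. CA1200 had 12.2 and 14.8, then 6.49 and 10.9, then 8.16, and last 9.74 and 11.8. At 30 min one CA1200 library was as low as AM05, and the strains overlapped. By 60 and 120 min all AM05 libraries were below those of CA1200. The share of the no-auxin level left after 120 min was 17.5% and 16.9% in AM05 and 79.8% in both replicates of CA1200.

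Y60A3A.19, a shorter gene with a like course, had 42.3 and 50.8 scaled TPM in AM05 at 0 min, 25.6 and 39.9 at 30 min, 18.8 and 23.4 at 60 min, and 12.2 and 12.5 at 120 min. The CA1200 series ran 54.3 and 47.8, 70.6 and 48.6, 54.1, and 51.3 and 43.2. CA1200 showed no steady trend, and AM05 lay below it from 30 min on. Y60A3A.19 was the slowest of the 4, with 60.5% and 78.7% left in AM05 after 30 min.

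Across these 4 genes and both replicates, AM05 kept 50.4% to 78.7% of its no-auxin level after 30 min, 24.9% to 46.1% after 60 min and 11.9% to 28.8% after 120 min. The medians over the 8 values, which are 4 genes in 2 replicates and not 8 replicates, were 56.2%, 30.5% and 17.2%. In CA1200 the medians were 80.4% after 30 min, 75.1% after 60 min (4 values) and 83.8% after 120 min, with 67.9% to 94.5% at the last time. The level in AM05 was lower in each of these genes at each later time in both replicates. The spans of the 4 genes ran between 3443 and 27606 bp. At 120 min Y60A3A.19, the shortest, kept 28.8% and 24.6% in AM05, and phkg-1, the next by span, kept 11.9% and 23%. Y48E1B.3 kept 16% and 16.9% and Y64G10A.7, the longest, 17.5% and 16.9%, so the longer genes showed no order by span.

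**Figure D2:**
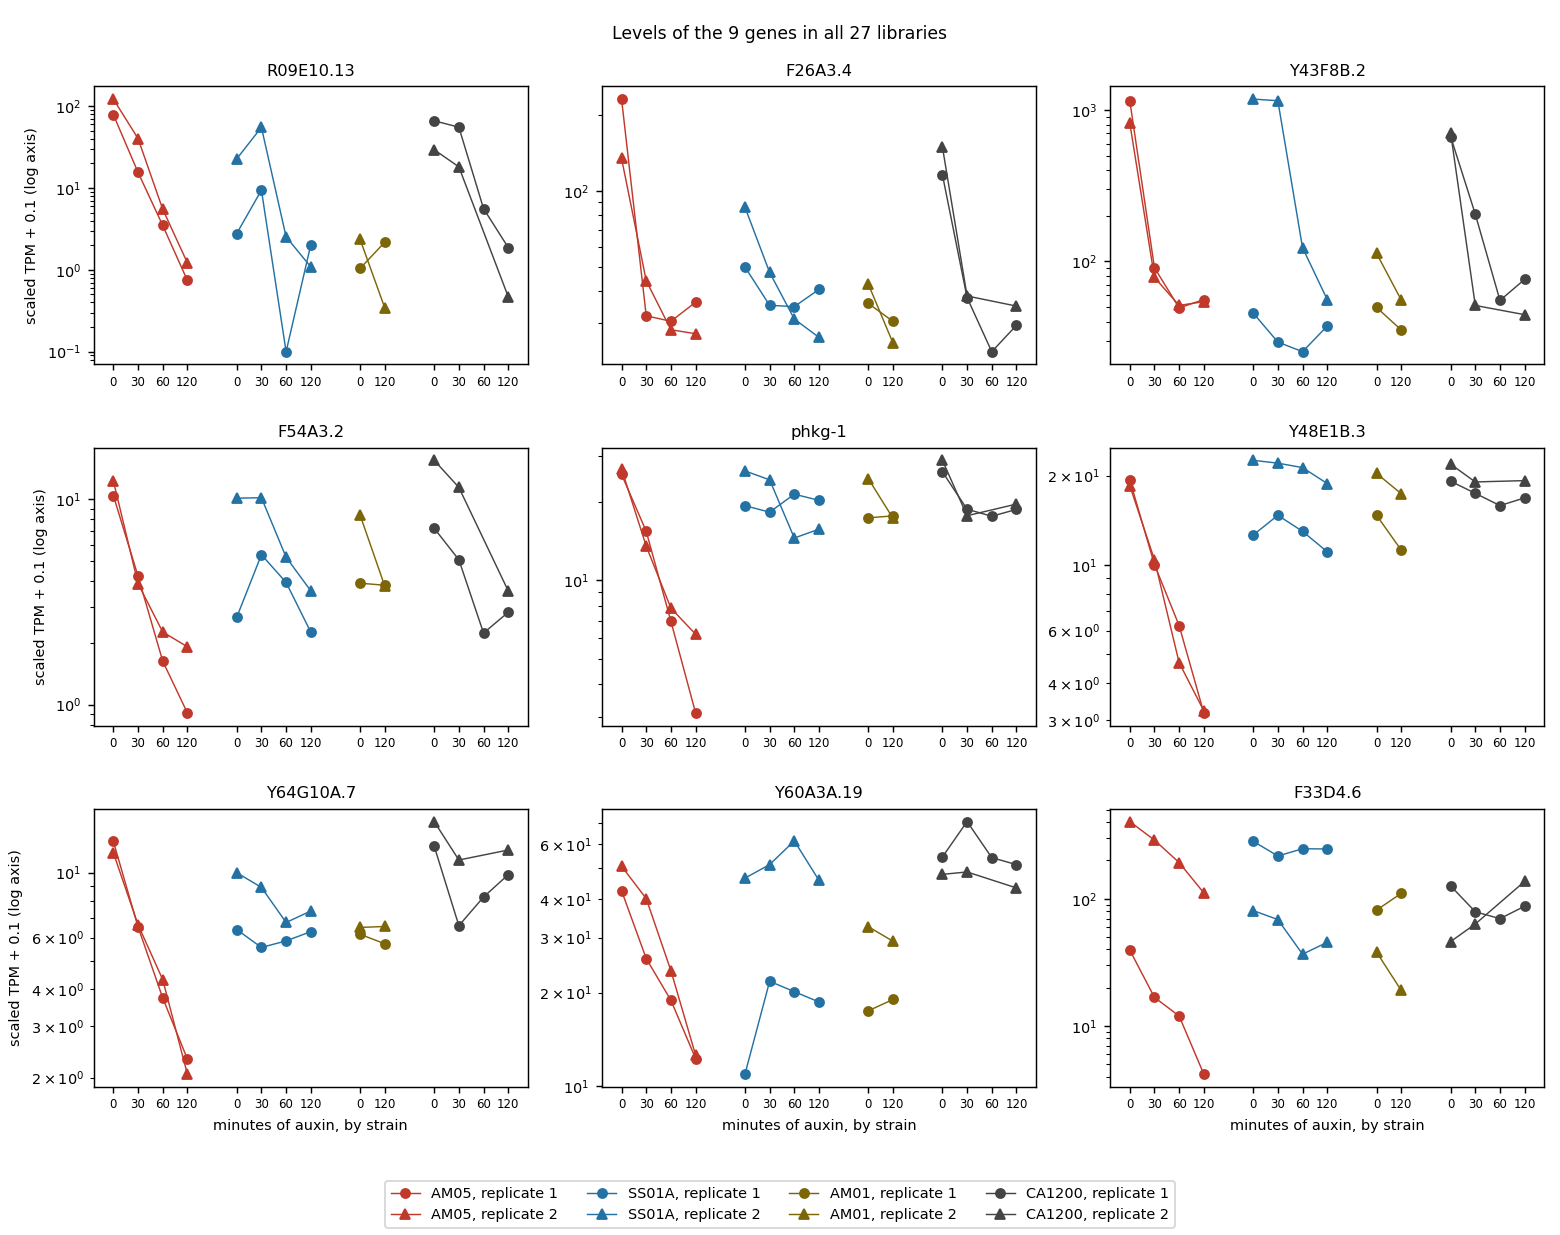
Scaled TPM plus 0.1 (vertical log axis) of each gene in all 27 libraries by minutes of auxin (horizontal axis), with AM05, SS01A, AM01 and CA1200 from left to right; circles are replicate 1, triangles replicate 2, and lines join libraries of 1 replicate. phkg-1, Y48E1B.3, Y64G10A.7 and Y60A3A.19 step down in AM05 to between 11.9% and 28.8% of the no-auxin level, while R09E10.13, F26A3.4 and Y43F8B.2 are also far lower after auxin in CA1200.

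R09E10.13, the shortest gene, had the lowest log2 change of the 9 in AM05. In AM05 it had 78.5 and 122 scaled TPM at 0 min, 15.4 and 40 at 30 min, 3.39 and 5.4 at 60 min, and 0.642 and 1.12 at 120 min. In CA1200 the values were 66 and 29.2, 55.1 and 18, 5.49, and 1.77 and 0.369. It had thus almost gone by 120 min in both strains, with 0.818% and 0.918% of the no-auxin level left in AM05 and 2.68% and 1.26% in CA1200. At 30 min the strains were further apart, with 19.6% and 32.9% left in AM05 and 83.5% and 61.7% in CA1200. The AM05 libraries after 120 min lay inside the range of those of CA1200. Only 8 tested genes had a lower log2 change in AM05 after 120 min than the -5.73 of R09E10.13, and 7 had a lower one in CA1200 than its -4.53.

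F26A3.4 was at a far lower level by 30 min in both strains and stayed near it. Its AM05 values were 231 and 134 scaled TPM at 0 min, 31.9 and 43.9 at 30 min, 30.3 and 28 at 60 min, and 36.1 and 27 at 120 min. Its CA1200 values were 116 and 149, 37.6 and 38.2, 22.9, and 29.2 and 34.8. After 120 min the mean was 31.6 ± 6.39 in AM05 and 32 ± 3.98 in CA1200 (SD, n = 2 each), and the libraries overlapped.

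Y43F8B.2 reached the highest level of the 9 in any library by TPM, which is per transcript length, and F33D4.6 was above it in several libraries. AM05 had 1152 and 821 scaled TPM at 0 min, 90.9 and 78.4 at 30 min, 49.3 and 51.2 at 60 min, and 56 and 54.2 at 120 min. CA1200 had 667 and 707, 205 and 51.2, 55.2, and 76.1 and 44.5. Here too most of the transcript was gone after 30 min, down to 7.89% and 9.55% in AM05 and to 30.8% and 7.24% in CA1200. The strains overlapped at 30 and at 120 min.

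F54A3.2 shared features of both courses. In AM05 it stood at 10.3 and 12.2 scaled TPM at 0 min, 4.13 and 3.79 at 30 min, 1.53 and 2.16 at 60 min, and 0.812 and 1.82 at 120 min. CA1200 had 7.14 and 15.4, 4.99 and 11.4, 2.13, and 2.72 and 3.49. AM05 was lower sooner, with both libraries below those of CA1200 at 30 min, and the strains overlapped at 60 min. After 120 min it stood in AM05 at 42.3% of the CA1200 mean, with the libraries apart, while CA1200 itself had 38.1% and 22.6% of its no-auxin level left. The distance between the strains at 120 min varied with the libraries and settings used. The log2 difference was -0.86, and -1.17 to -0.54 with 1 library left out, the last without AM05 replicate 1. Under the other settings it was -1.27 to -0.36.

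F33D4.6 in AM05 had 39.5 and 404 scaled TPM at 0 min, 16.7 and 289 at 30 min, 11.9 and 192 at 60 min, and 4.1 and 111 at 120 min. CA1200 had 126 and 46, 79 and 63.3, 69.7, and 87.3 and 137. Replicate 2 of AM05 was far above replicate 1 at every time, and at 120 min the AM05 libraries lay on both sides of those of CA1200. Within each AM05 replicate the level was lower at each later time, with 10.4% and 27.5% left after 120 min, whereas in CA1200 69.2% and 297% of the no-auxin level was found. The log2 difference between AM05 and CA1200 at 120 min was -2.21, and 0.02 without AM05 replicate 1, so its place below CA1200 rests on that library. The molting list, genes of the cuticle and its periodic renewal, also differed between the AM05 replicates, with summed levels over 29 genes of 786 to 13279 scaled TPM at 120 min and 2891 to 16660 at 0 min, against 3794 to 6139 and 4457 to 6188 in CA1200. 27 of the 29 genes were above 0 in every library; the list's part in the F33D4.6 values was not tested. The gene nhr-8 on the opposite strand overlaps F33D4.6 by 519 bp. The libraries were stranded, but the use of strand in counting was not given in the sources used here.

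**Figure D3:**
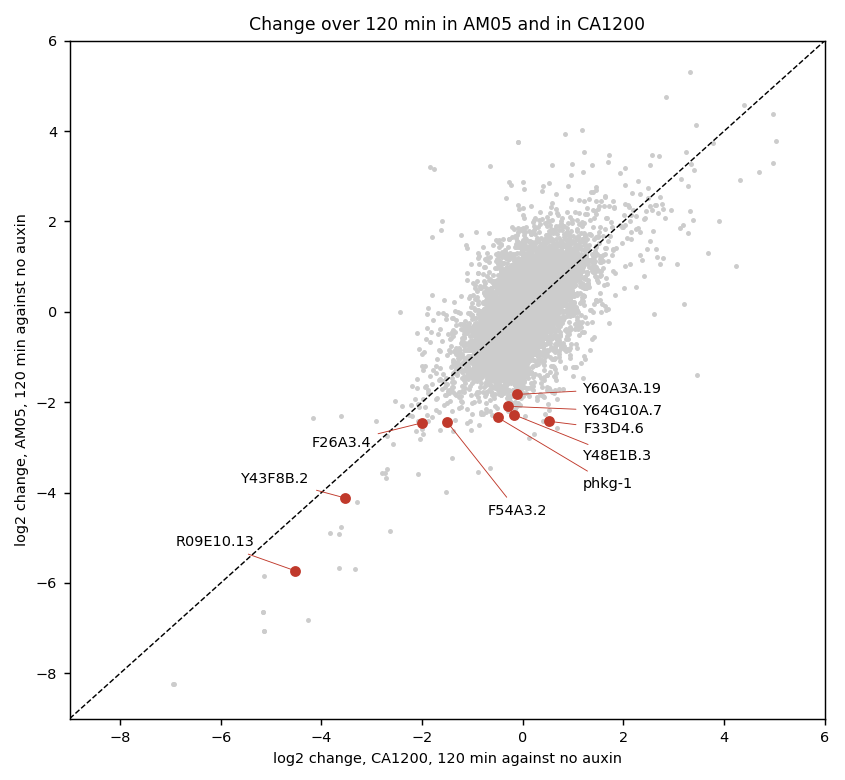
Log2 change after 120 min of auxin against no auxin in AM05 (vertical axis) and in CA1200 (horizontal axis) for all tested genes in grey and the 9 genes in red; the dashed line marks equal change. R09E10.13, F26A3.4 and Y43F8B.2 are low in both strains, while phkg-1, Y48E1B.3, Y64G10A.7, Y60A3A.19 and F33D4.6 lie more than 1.7 below the line.

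Placed among all tested genes, the change of each gene relative to the change in CA1200 shows how the groups part. The AM05 change minus the CA1200 change at 120 min was lowest for F33D4.6, the gene whose AM05 replicates lay far apart, at -2.93 with 0.035% of tested genes lower. It was -2.10 for Y48E1B.3, -1.84 for phkg-1, -1.79 for Y64G10A.7 and -1.72 for Y60A3A.19, with 0.329% to 0.750% of tested genes lower. It was -1.20 for R09E10.13, -0.94 for F54A3.2, -0.58 for Y43F8B.2 and -0.45 for F26A3.4, with at least 2.78% of tested genes lower for each. The median over all tested genes was 0.04. These values use the contrast that chose the genes.

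The change in CA1200, the strain with no listed degron target, had no part in the choice except for the libraries at 120 min, which the rule set against AM05. Over 120 min the log2 change was -4.53 ± 0.95 (SE) for R09E10.13, -3.54 ± 1.43 for Y43F8B.2, -2.01 ± 0.34 for F26A3.4 and -1.5 ± 0.51 for F54A3.2. The limma test adjusted over all genes called 0 of the 9, as it called 0.00701% of all tested genes, and 4 of the 9 had an unadjusted p under 0.05, as did 4.72% of all tested genes. The adjusted p was 0.261 for R09E10.13, 0.127 for F26A3.4, 0.770 for F54A3.2 and 0.883 for Y43F8B.2 in that limma fit. Since the 120 min libraries entered the choice, these p-values are a description only.

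Within a strain, libraries with the same replicate number deviated together, and a limma fit with the replicate as a block called these 4 of the 9 lower at 120 min. The 4 were grouped after their CA1200 values were seen, so these calls are no separate evidence for the group. The CA1200 libraries at 120 min also entered the choice of the 9 genes, so calls and p-values at that time are a description only. The pairing was also weakest between these CA1200 times (r = 0.378). That fit called 2.24% of all tested genes, 1.29% higher and 0.953% lower. Its adjusted p was 0.00812 for R09E10.13, 0.0122 for F26A3.4, 0.0317 for F54A3.2 and 0.0465 for Y43F8B.2. Without the 6 libraries that stand apart, limma called 3 of them, R09E10.13, F26A3.4 and Y43F8B.2, and 0.315% of all tested genes. For phkg-1, Y48E1B.3, Y64G10A.7, Y60A3A.19 and F33D4.6 the CA1200 change at 120 min lay between -0.50 and 0.51. A level in AM05 below CA1200 at 120 min was a ground for choosing genes and favours those high in the CA1200 libraries of that time, so nothing is read from the lack of a call for these 5.

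At the earlier times in CA1200, limma again called 0 of the 9, and 0% of all tested genes at both 30 and 60 min. At 30 min 2 had an unadjusted p under 0.05, beside 2.97% of all tested genes: F26A3.4 with a log2 change of -1.77 ± 0.34 (SE) and Y64G10A.7 with -0.61 ± 0.27. The block fit called F26A3.4 at 30 min (limma adjusted p = 0.0434), where it called 0.217% of all tested genes. At 60 min, with 1 CA1200 library that is assumed to vary like the other groups, 3 had an unadjusted p under 0.05, beside 3.87% of all tested genes: F26A3.4 at -2.47, R09E10.13 at -2.79 and F54A3.2 at -1.88. With no filter on low values limma called 1 of the 9 at 60 min, F26A3.4, and 0.0468% of all genes then tested.

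In SS01A the 2 replicates followed different courses, and the test called 0 of the 9 genes at 30, 60 or 120 min. limma called 0% of all tested genes at each of these times, and 0, 2 and 1 of the 9 genes had an unadjusted p under 0.05, beside 1.44%, 1.31% and 1.65% of all tested genes. The authors' deposited table, made with DESeq2, also called 0 of the 9 at each time, and 0.00611% of all genes with an adjusted p at 30 min and 0% at 60 and 120 min. Y43F8B.2 shows the split between replicates. In SS01A replicate 2 it had 1179 scaled TPM at 0 min, 1150 at 30 min, 123 at 60 min and 56 at 120 min. Replicate 1, whose libraries are among those that stand apart, had 45.6, 29.3, 25.3 and 37.4 at those times. The replicates were thus far apart at 0 and 30 min, closer at 60 min and came together at 120 min, at a level close to that reached in AM05 and CA1200.

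R09E10.13 in SS01A had 22.6, 54.9, 2.42 and 0.987 scaled TPM over time in replicate 2, and 2.68, 9.29, 0 and 1.92 in replicate 1. It was higher at 30 min than at 0 min in both SS01A replicates, and lower at 60 min in both. F26A3.4 had 86, 47.4, 30.9 and 26.2 in replicate 2 and 49.8, 35.1, 34.7 and 40.6 in replicate 1. F54A3.2 had 10.1, 10.1, 5.13 and 3.49 in replicate 2, against 2.57, 5.28, 3.84 and 2.16 in replicate 1. In replicate 2, then, these 4 genes were also lower after 120 min of auxin, and in replicate 1 they started low. The summed heat shock list, described below, ran with this split, at 819 scaled TPM in one SS01A library at 0 min and 31898 in the other, and its part was not tested.

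phkg-1, Y48E1B.3, Y64G10A.7 and Y60A3A.19 kept 59.7% to 171% of their no-auxin level in SS01A after 120 min. In the order named they kept 105%, 87.8%, 98.3% and 171% in replicate 1, whose libraries stand apart. In replicate 2 they kept 59.7%, 83.4%, 73.8% and 98.4%. In AM05, whose values entered the choice, these 4 genes kept 11.9% to 28.8%. Their log2 change over 120 min in SS01A lay between -0.32 for phkg-1 and 0.35 for Y60A3A.19, and none had an unadjusted limma p under 0.05. The difference between the SS01A change and the CA1200 change at 120 min was called by limma for 0 of the 9 genes and for 0% of all tested genes, with 1 unadjusted p under 0.05 beside 0.757% of all tested genes. That gene was F26A3.4, at 1.03 ± 0.48 (SE) more in SS01A. This difference, too, holds the CA1200 libraries at 120 min that entered the choice of genes. Nothing is therefore read from the lack of calls or from that unadjusted p. For Y48E1B.3 this difference was -0.03 ± 0.44, for Y64G10A.7 0.09 ± 0.39 and for phkg-1 0.18 ± 0.40.

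AM01, the DPY-27 degron strain, showed no called change over 120 min. limma called 0 of the 9 genes and 0.0491% of all tested genes, and 0 of the 9 had an unadjusted p under 0.05, beside 1.53% of all tested genes. phkg-1 had 17.6 and 17.2 scaled TPM after 120 min against 17.3 and 24.4 without auxin. Y64G10A.7 had 5.62 and 6.45 against 6.06 and 6.40, and Y60A3A.19 had 18.9 and 29.1 against 17.4 and 32.4. R09E10.13 was low at both times, with 2.08 and 0.241 after 120 min and 0.941 and 2.25 without auxin.

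Levels also differed between strains before auxin. Set against CA1200, the log2 difference in AM01 ran from -4.02 ± 1.07 (SE) for R09E10.13 to 0.44 ± 1.91 for F33D4.6. It was -3.63 ± 1.60 for Y43F8B.2, -1.72 ± 0.38 for F26A3.4, -1.43 ± 0.69 for Y60A3A.19 and -1.06 ± 0.31 for Y64G10A.7. The direction over all tested genes was not counted. These AM01 differences are for L2/L3 worms, fitted from all 4 AM01 libraries with 1 mixed-stage term shared by both times. In AM01 the L2/L3 libraries are those of replicate 1, which stand apart, so stage and that split cannot be told apart. limma called 0 of the 9, against 0.476% of all tested genes, with 4 unadjusted p under 0.05, where 20.8% of all tested genes had one; the lowest adjusted p were 0.0565 for F26A3.4 and 0.0891 for R09E10.13. The authors' deposited table, from DESeq2, called 3: R09E10.13 at a log2 fold change of -5.02 with an adjusted p of 9.70e-09, Y43F8B.2 at -3.15 with 7.29e-07 and F26A3.4 at -1.81 with 0.00121. That table called 6.7% of all genes with an adjusted p. In SS01A against CA1200, limma called 0 of the 9 and 0% of all tested genes, 3 of the 9 had an unadjusted p under 0.05, beside 6.28% of all tested genes, and the authors' deposited table called 0, where it called 0.783% of all genes with an adjusted p. These comparisons share the CA1200 libraries. With the replicate block limma called 7 of the 9 in AM01 and 4 in SS01A, where it called 45% and 24% of all tested genes; that block takes out the spread between replicates of a strain, which is the error of a comparison between strains. limma called 1 of the 9 in AM01, F26A3.4, with a pseudocount of 5 and likewise with no filter, where it called 1.98% and 1.07% of all genes tested.

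The no-auxin levels also went with the letters of the library code in the titles. The 3 libraries coded AM were both of AM01 and replicate 1 of SS01A, and the 5 coded AKM were both of AM05, both of CA1200 and replicate 2 of SS01A. R09E10.13 had 0.941 to 2.68 scaled TPM in the AM libraries and 22.6 to 122 in the AKM libraries. Y43F8B.2 had 45.6 to 113 in the AM libraries and 667 to 1179 in the AKM libraries, and F26A3.4 had 35.7 to 49.8 and 86 to 231 in the same order. Y60A3A.19, at 10.9 to 32.4 and 42.3 to 54.3, Y64G10A.7, at 6.06 to 6.40 and 9.89 to 14.8, and phkg-1, at 17.3 to 24.4 and 25.4 to 28.7, were also apart. F54A3.2, Y48E1B.3 and F33D4.6 overlapped between the codes. The AM05 libraries coded AKM are those from which the decrease that chose the genes was taken, which favours genes high in them. How many of all tested genes part between the codes was not counted, so the gaps are not read as particular to these genes. SS01A is the only strain with both codes, with 1 library of each, so code and strain cannot be told apart beyond it; what the codes stand for is not stated.

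**Figure D4:**
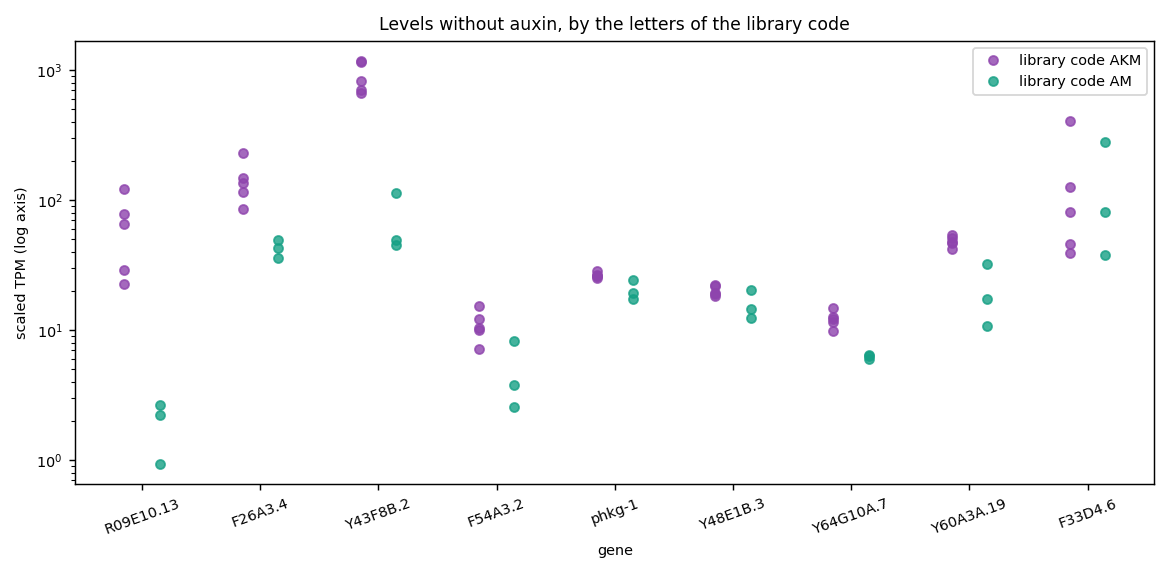
Scaled TPM (vertical log axis) of each gene (horizontal axis) in the 8 libraries without auxin, by the letters of the library code: 5 libraries coded AKM to the left in purple and 3 coded AM to the right in green. R09E10.13 and Y43F8B.2 show the widest gap, at 0.941 to 2.68 against 22.6 to 122 and 45.6 to 113 against 667 to 1179 scaled TPM in AM and AKM libraries. The AKM libraries include those of AM05, whose values entered the choice of genes.

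Heat shock genes encode chaperones induced by heat and other protein stress. In AM05 and CA1200 their summed level was lower at 120 min than without auxin, as were the levels of R09E10.13, F26A3.4 and Y43F8B.2. At the times between, the sum and the levels of R09E10.13, F26A3.4 and Y43F8B.2 ran alike in some places and apart in others. The summed level of 19 genes, those of the 20 listed names that matched a gene, was 1753 to 1857 scaled TPM in AM05 after 120 min and 27163 to 36482 without auxin. In CA1200 it was 1402 to 2090 after 120 min and 14613 to 20847 without auxin. Across the no-auxin libraries it was 819 to 2771 in those coded AM and 14613 to 36482 in those coded AKM. All 19 genes were above 0 in every library. In AM05 it was still 14694 to 28610 at 30 min and 5602 to 12592 at 60 min, while F26A3.4 and Y43F8B.2 stood at 7.89% to 32.7% of their no-auxin level by 30 min. In CA1200 the sum was 12610 to 31932 at 30 min, when R09E10.13 still stood at 83.5% and 61.7% of its no-auxin level. F26A3.4 then stood at 32.5% and 25.6%, and Y43F8B.2 at 30.8% and 7.24%. In the only CA1200 library at 60 min the sum was 11362. There R09E10.13 stood at 8.32%, Y43F8B.2 at 8.28% and F26A3.4 at 19.8% of the no-auxin level of replicate 1. The part of the heat shock genes in the course of the 3 was not tested.

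The median log2 change of the heat shock list over 120 min was -4.89 in AM05 and -3.61 in CA1200, beside 0.04 and 0 over all tested genes. All 19 genes were tested, and limma called 1 of them lower in AM05, dnj-13, a chaperone of the Hsp40 type, at -4.89 ± 1.16 (SE) with an adjusted p of 0.0463, and 0 in CA1200. With the replicate block limma called 16 lower and 1 higher in AM05, where it called 11.5% of all tested genes lower and 11.4% higher, and 13 lower in CA1200, where it called 0.953% lower. dnj-13 averaged 15.6 scaled TPM in AM05 after 120 min and 508 without auxin, against 20.7 and 321 in CA1200.

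The genes next to each of the 9 were examined next, as the 2 nearest on each side by start position. 27 of these 36 flanking genes were tested, and in AM05 after 120 min limma called 1 of them higher and 5 lower, where it called 0.827% of all tested genes higher and 1.11% lower (1.94% in all). In CA1200 it called 0 of the 27, and 0.00701% of all tested genes, with 1 called higher under the replicate block, where 1.29% of all tested genes were. The median log2 change of the flanking genes was -0.28 in AM05 and -0.09 in CA1200. Those called lower lay beside the long genes phkg-1, Y48E1B.3 and F54A3.2.

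Beside phkg-1, hpo-29 upstream had 4.53 and 6.84 scaled TPM in AM05 after 120 min against 23.8 and 25.4 without auxin, a log2 change of -1.96 ± 0.35 (SE; limma adjusted p = 0.0147). xpd-1 on its other side, named for a DNA repair and transcription factor helicase, had 1.07 and 3.02 against 7.61 and 11.5, a change of -1.85 ± 0.36 (limma adjusted p = 0.0208). Y50D7A.11, which lies between phkg-1 and xpd-1, had 0.573 and 2.90 against 8.18 and 11.9; its change of -2.14 ± 0.65 did not pass (limma adjusted p = 0.115) but was called with the block (limma adjusted p = 5.37e-04). hpo-29 spans 17536 bp and xpd-1 spans 14426 bp, so both are long genes as well. All 3 genes were thus low in both AM05 libraries at 120 min. hpo-38, on the far side of hpo-29, was at -0.91 ± 0.39, which did not pass either (limma adjusted p = 0.313, with the block 0.047). In CA1200 the changes of these 4 neighbours lay between -0.64 and -0.43.

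Beside Y48E1B.3, ddl-2 had 1.38 and 1.84 scaled TPM in AM05 after 120 min against 9.35 and 9.82 without auxin, a change of -2.03 ± 0.40 (SE; limma adjusted p = 0.0210). As said above, ddl-2 overlaps Y48E1B.3 by 382 bp, so its level may hold reads of Y48E1B.3. noa-1 had 1.48 and 3.49 against 11.2 and 11.7, a change of -1.90 ± 0.39 (limma adjusted p = 0.0241). Both lie on the same strand on the same side of Y48E1B.3, and in CA1200 ddl-2 had 8.48 and 8.18 after 120 min against 7.88 and 10.1 without auxin. On the other side mrpl-37, 81 bp from Y48E1B.3, had 12.4 and 12.8 against 17 and 15.6, and its change of -0.35 did not pass. lin-38, beyond mrpl-37, had 2.04 and 3.28 against 8.07 and 6.03, a change of -1.15 ± 0.31 that did not pass (limma adjusted p = 0.0756) and was called with the block (limma adjusted p = 0.00257). In CA1200 lin-38 had 4.77 and 6.10 after 120 min against 4.77 and 8.40 without auxin.

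F54A3.6, near F54A3.2, had 1.95 and 2.91 scaled TPM in AM05 after 120 min against 6.72 and 6.53 without auxin (-1.17 ± 0.26 SE, limma adjusted p = 0.0341). cct-3, a subunit of the cytosolic chaperonin that lies 78 bp from F54A3.2, had 47.1 and 42.5 against 89.8 and 84.5, at -0.95 ± 0.36, which did not pass (limma adjusted p = 0.219) except with the block (limma adjusted p = 0.00404). C50F7.5, near F33D4.6, was the only flanking gene called higher, with 1251 and 749 scaled TPM after 120 min against 106 and 32.5 without auxin (4.02 ± 0.95 SE, limma adjusted p = 0.0463). In CA1200 C50F7.5 had 185 and 175 after 120 min against 76.3 and 80.6 without auxin, a smaller difference in the same direction. Around R09E10.13, F26A3.4, Y43F8B.2, Y64G10A.7 and Y60A3A.19 limma called 0 flanking genes, and with the replicate block 2: Y43F8B.1 beside Y43F8B.2 at -0.71 (limma adjusted p = 0.0326) and skr-4 near Y60A3A.19 at 1.25 (limma adjusted p = 0.00379). Of all flanking genes the block fit called 2 higher and 10 lower, where that fit called 11.4% of all tested genes higher and 11.5% lower. The AM05 change minus the CA1200 change was called for 0 of the 27 and 0% of all tested genes by limma, and with the block for 5 lower, where that fit called 1.2% of all tested genes lower.

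**Figure D5:**
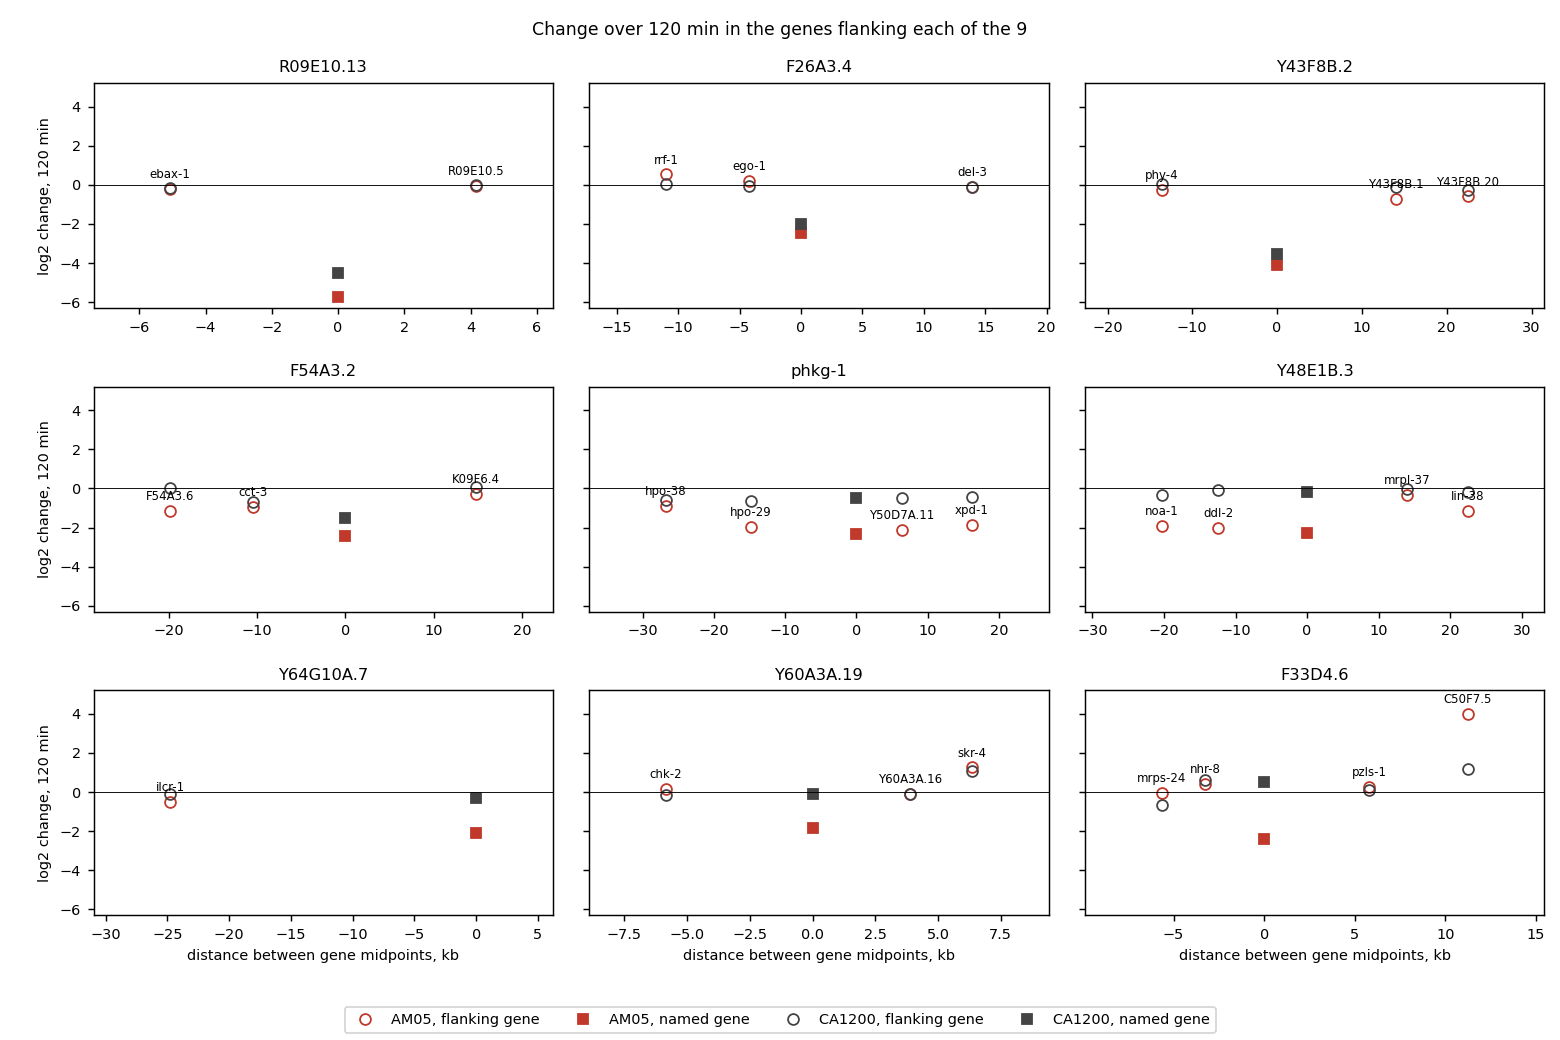
Log2 change after 120 min of auxin (vertical axis) in AM05 (red) and CA1200 (dark grey) for each of the 9 genes (squares) and its tested flanking genes (open circles, labelled by name), by the distance between gene midpoints in kb (horizontal axis). hpo-29, Y50D7A.11 and xpd-1 beside phkg-1 and the left-hand neighbours of Y48E1B.3 lie near -2 in AM05 and between -0.64 and -0.09 in CA1200, while those of R09E10.13, F26A3.4 and Y60A3A.19 stay far above the named gene.

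These calls in AM05 rested on few libraries. Over the flanking genes and the heat shock, glycogen, MAP kinase and molting lists together limma called 8 at 120 min in AM05, and 0 when AM05 replicate 1 or 2 without auxin, or replicate 1 at 120 min, was left out, and 3 without AM05 replicate 2 at 120 min. Of all tested genes it called 1.94% with every library, 0.133%, 0.126% and 0.126% in the first 3 of these, and 0.771% in the last. Without the 6 libraries that stand apart it called 24 listed genes and 4.41% of all tested genes, and with the replicate block 54 and 23%. On TPM as deposited it called 2 and 0.0631%. Of the tested tissue markers, which are not in these counts, limma called 0, and with the block 1 neuronal gene higher and 1 hypodermal gene lower.

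Other genes of glycogen metabolism were set beside phkg-1. Of 8 listed, limma called 0 in either direction in AM05 after 120 min, and with the block 2 lower, where the block fit called 11.5% of all tested genes lower; the median change was -0.15. phkb-1, the gene of a regulatory subunit of the same kinase, was at -1.31 ± 0.34 (SE; limma adjusted p = 0.0628, with the block 4.06e-04). phka-1, by its name the gene of another subunit of that kinase, was at 0.27 ± 0.31 and was not called in either fit. The change in AM05 was negative for 5 of the 8 listed genes. gsy-1, glycogen synthase, was at -1.05 ± 0.29 (limma adjusted p = 0.0847, with the block 0.00101). In CA1200 limma called 0 of the 8, with or without the block, and phkb-1 was at -0.21.

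Among 22 listed genes of MAP kinase signalling, a phosphorylation cascade that carries growth and stress signals, limma called 1 lower and 0 higher in AM05, with a median of 0.06, and with the block 4 higher and 3 lower, where that fit called 11.4% of all tested genes higher and 11.5% lower. The gene called was mek-2, a MAP kinase kinase, at -1.25 ± 0.21 (SE; limma adjusted p = 0.0101). In CA1200 mek-2 was at -0.25 and 0 were called. Of 28 tested genes of the molting list limma called 0, with a median change of -1.07 in AM05 and -0.34 in CA1200; with the block it called 15 lower and 1 higher in AM05 and 1 lower in CA1200, beside the same shares of all tested genes as for the heat shock list. mlt-11, a gene needed for molting, had the lowest value in AM05, at -3.55 ± 1.52 (limma adjusted p = 0.301, with the block 8.81e-05), followed by ptr-18 at -2.80 ± 1.00 (limma adjusted p = 0.189, with the block 4.06e-04).

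The genes whose levels followed each of the 9 most closely were found by Pearson's r of log2 values over the 27 libraries, which share strains, times and depth, so r is a description only. For phkg-1 they were ebp-1 (r = 0.931) and fars-2 (r = 0.929), which span 8756 and 9377 bp. ebp-1 averaged 5.84 scaled TPM in AM05 after 120 min and 24.4 without auxin, against 18.9 and 23.4 in CA1200, a course much like that of phkg-1. For Y48E1B.3 they were ddl-2 (r = 0.953), the neighbour that overlaps it and may share its reads, and tsct-2 (r = 0.952). tsct-2 lies on the same chromosome and spans 12352 bp. tsct-2 averaged 3.70 after 120 min and 20.5 without auxin in AM05, and 15.4 and 19.3 in CA1200.

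For Y64G10A.7 they were spl-3 (r = 0.905) and famp-1 (r = 0.891), both also on chromosome IV, and for Y60A3A.19 spt-4 (r = 0.938) and Y47D3A.21 (r = 0.923). For F54A3.2 they were laf-1 (r = 0.952), an RNA helicase, and wars-1 (r = 0.930), a tryptophanyl-tRNA synthetase, which averaged 10.1 scaled TPM after 120 min and 47.7 without auxin in AM05, and 21.1 and 48.3 in CA1200. Each of these 6 genes, like the gene it followed, was higher in CA1200 at 120 min than in AM05.

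Y43F8B.2 was followed most closely by nurf-1 (r = 0.956), a chromatin remodelling subunit, and by the heat shock gene dnj-13 (r = 0.951). nurf-1 averaged 74.7 scaled TPM after 120 min and 897 without auxin in AM05, and 69.6 and 476 in CA1200. F26A3.4 was followed by nac-3 (r = 0.930) and R107.5 (r = 0.908); R107.5 averaged 11.7 after 120 min and 862 without auxin in AM05, and 16 and 595 in CA1200. R09E10.13 was followed by nhr-17 (r = 0.922) and chp-1 (r = 0.895). All of these had lower means after 120 min in both strains.

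F33D4.6 was followed by abu-13 (r = 0.967) and gtnt-16 (r = 0.961). Among the 9 genes themselves, r was highest between phkg-1 and Y48E1B.3 (0.898), Y48E1B.3 and Y64G10A.7 (0.863) and phkg-1 and Y64G10A.7 (0.850). It was 0.813 between F26A3.4 and Y43F8B.2 and 0.786 between R09E10.13 and Y43F8B.2. F33D4.6 had its highest r with phkg-1, at 0.431.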

How the data were processed

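Stranded poly(A) libraries were made with dUTP, per the labels' protocols. The deposited library files give FPKM and TPM per gene; per the submitters' processing notes the authors used DESeq2 1.30.0, Cufflinks 2.2.1, HTSeq 0.13.5, HISAT2 2.2.1 and CASAVA 1.8. A genome build was not given in the sources used here. TPM served for all levels and FPKM only to estimate depth, from the step that 1 fragment makes in genes with few reads. The authors' 16 deposited comparison tables hold a mean signal, a log2 fold change, a test score and a p-value and adjusted p-value per gene, and are quoted only by name.

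TPM was scaled by median ratios over 12832 genes, and log2(scaled TPM + 1) was taken, which understates changes of low genes. A gene was tested if 2 or more libraries gave it a TPM of 1 or more. limma 3.58.1 (R 4.3.3) fitted all 27 libraries with a mean per strain and time and a term for mixed-stage libraries, leaving 12 residual degrees of freedom, or 9 with the replicate block. That term is shared by both AM01 times, so the AM01 level set against CA1200 is fitted from all 4 AM01 libraries. Tests were two-sided, adjusted by Benjamini-Hochberg over 14271 genes, and called at an adjusted p under 0.05. The fit without the block was also run on simulated data. Noise there was independent between libraries, so replicates that deviate together and the block fit were not covered. Since the labels do not say that libraries come from separate cultures, p-values measure the spread between these libraries.

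The labels say that worms of one population were split between auxin and control plates. The deviations of libraries with the same number within a strain correlated at 0.378 to 0.904, so the numbers were taken to pair libraries.

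The 9 genes and the lists (flanking, glycogen, MAP kinase, heat shock, molting, stage and tissue markers) were chosen with earlier results of these data known. Besides the 9 genes, the text names the 2 genes most like each, flanking genes, and list genes that were called or, where none was, the 2 with the largest change. Further flanking genes, phka-1, and dnj-13 and C50F7.5 levels in CA1200 were added after their values were seen. Sequences of these genes were not used here, and a planned search of promoters for motifs was not run. Gene symbols matched for 19880 of 20390 listed genes.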

Additional observations from a re-analysis of the deposited data

How the results depend on the processing

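The alternatives were TPM as deposited, pseudocounts of 0.1 and 5, no filter beyond a value above 0, a filter of TPM of at least 5, the replicate block, leaving out the 6 libraries that stand apart, and leaving out each library of a comparison. The median log2 change of the 9 genes in AM05 at 120 min was -2.42, and -1.72 with a pseudocount of 5; leaving out 1 library gave -2.75 to -2.15. Their median difference from CA1200 at 120 min was -1.85, and -1.87 to -0.54 with a library left out, the last without AM05 replicate 1. F33D4.6 turned its direction there, with -4.44 to 0.022 around -2.21. The number of the 9 called in CA1200 was 1 at 30 min and 4 at 120 min with the replicate block, 1 at 60 min with no filter and 3 at 120 min without the 6 libraries, where 0.217%, 2.24%, 0.0468% and 0.315% of all tested genes were called. In AM01 against CA1200 it was 1 with a pseudocount of 5, 1 with no filter and 7 with the block, beside 1.98%, 1.07% and 45% of all tested genes, and in SS01A against CA1200 4 with the block, beside 24%. Genes called in AM05 at 120 min among the flanking, heat shock, glycogen, MAP kinase and molting lists numbered 8, and 2 with TPM as deposited, 24 without the 6 libraries, 54 with the block and 0 to 3 with a library left out. Of 144 values of counts and medians under an alternative, 18 moved. Of 1197 values of single genes, 1139 stayed on their side of the threshold or within the spread, 22 came past the threshold, 35 values with no test moved further and 1, that of F33D4.6 above, reversed. The cause of these shifts was not tested. The block changed no other call of the 9 genes. CA1200 at 60 min without its only library and AM01 against CA1200 without the 6 libraries gave no value. Depth limits R09E10.13, since its levels after 120 min were near 1 scaled TPM.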
